A study of Homo sapiens with 6 samples.

Results

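The genes described here encode the machinery that licenses, fires and copies replication origins: 46 genes, chosen by name and ordered by role, of 54261 genes in the count table. The study used A549, an established cell line from a human lung adenocarcinoma. In 3 libraries SNHG17, a long noncoding RNA, had been knocked down by siRNA (si-SNHG17), and 3 came from control cells (si-NC). Both groups grew in the same medium with serum and differ in the siRNA alone, as far as the labels say. No source used here gives the time after transfection, the siRNA sequence or whether replicates were separate cultures, so the p-values measure variation among these libraries, possibly technical. All 46 genes had enough reads to enter the test, with 17 to 4156 counts per gene and library.

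DNA replication starts at origins bound by the origin recognition complex (ORC). CDC6 and CDT1 load the ring of MCM2 to MCM7 there in G1 phase, and geminin (GMNN) blocks CDT1 once S phase has begun. The kinase CDC7 with its activator DBF4 and the recruitment of CDC45 and the GINS complex turn that ring into the active helicase. Polymerase alpha-primase, polymerase delta and polymerase epsilon then copy the strands, with the clamp PCNA, its loader RFC and the single-strand binding complex RPA. Many of these genes are known targets of E2F transcription factors, which act at the G1/S boundary.

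SNHG17 (chr20:38420588-38435328, GRCh38.p14) was lower in each si-SNHG17 library. Its level was 7.82, 8.39 and 11.3 CPM (counts scaled to an equal library size) in si-SNHG17 and 38.7, 36.2 and 51.4 CPM in si-NC, a log2 fold change of -2.21 (standard error 0.167, adjusted p = 2.84e-07 by edgeR's quasi-likelihood test). For SNHG17 alone, the exact two-sided permutation p on log2 CPM was 0.1, and 3 libraries against 3 can give none smaller. Total counts ran from 8643076 to 12477214 per library. Within groups, counts of library pairs differed by 2.25 to 8.85 chi-square units per degree of freedom, the larger values with si-NC replicate 3. Between groups they differed by 38.4 to 55.3. Each library was counted as a sample, though these values cannot show whether replicates were separate cultures. Of the markers checked, the epithelial genes KRT8, KRT18, KRT19 and CDH1 were above 60 CPM in every library, whereas EPCAM was at 0.479 to 1.71 CPM. PTPRC, CD3E and NKG7, which mark immune cells, had no read in any library. The summed level of 7 immune markers, mostly CD14, was 29.1 to 32.5 CPM in si-SNHG17 and 38.1 to 52.8 CPM in si-NC. CD14 was lower in si-SNHG17 without overlap of the groups (log2 fold change -0.88). ITGAM, at 6.21 to 9.91 CPM, was higher without overlap (0.50). Of the stromal and endothelial markers, 7 of 8 were under 1 CPM in every library. Mitochondrially encoded RNA moved with the groups, from 7.26 to 8.08% of counts in si-NC to 4.17 to 4.54% in si-SNHG17. The part of the marker differences or of mitochondrial RNA in the results below was not tested.

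Most of the replication genes were lower after SNHG17 was targeted. Of the 46, 35 fell, 1 rose and 10 did not pass an adjusted p of 0.05 (edgeR, Benjamini-Hochberg over 15614 genes), whereas 19.6% of all genes tested were called lower and 19.6% higher. The fall was at least 2-fold for 13 of the 46, against 4.92% of all genes tested. In 37 of the 46 every si-SNHG17 library lay below every si-NC library, which held for 24.3% of all genes tested. The reverse held for 3 of the 46 and for 3917 of the 15614 genes tested. The median log2 fold change was -0.70 over the 46 and 0.01 over all genes tested, with a range from -2.11 (GINS1) to 0.49 (CDT1). Together the 46 genes took 0.289% ± 0.00952 of the reads in si-NC but 0.190% ± 0.00207 in si-SNHG17 (SD, n = 3). In RNA from whole cultures, fewer cells in S phase and less of these RNAs per cell cannot be told apart.

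**Figure D1:**
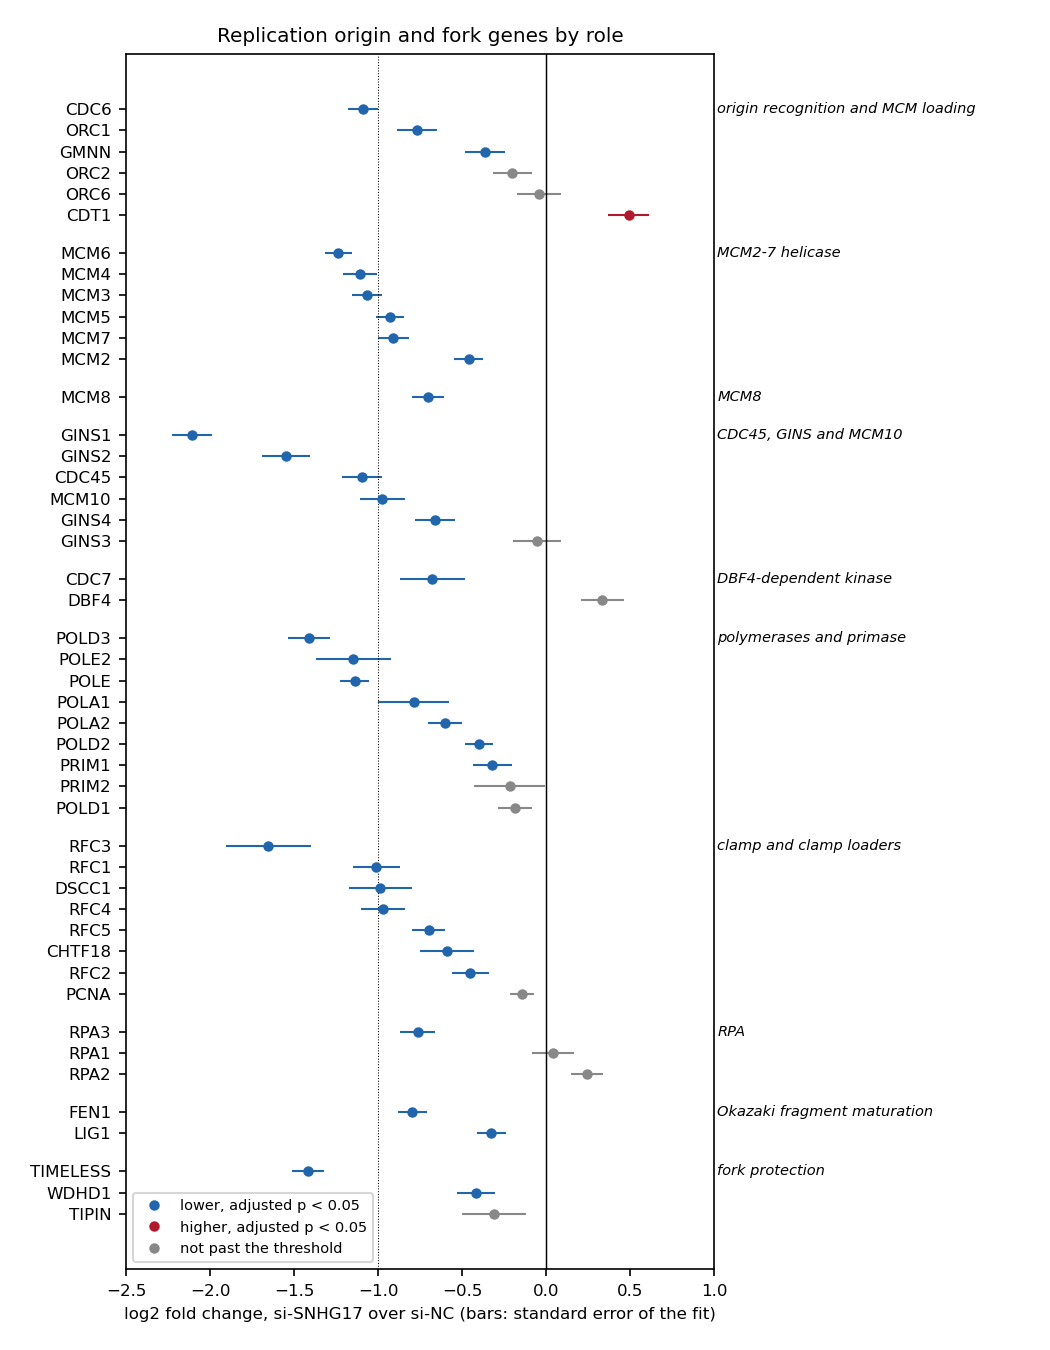
The horizontal axis is the log2 fold change of si-SNHG17 over si-NC for each of the 46 genes, with the standard error of the fit as bars, grouped by role; blue marks genes called lower, red genes called higher and grey genes not past the threshold, and the dotted line is a 2-fold fall. All 6 MCM2 to MCM7 genes lie to the left of 0, GINS1 is farthest left at -2.11, and CDT1 is the only red point.

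The promoters of 5 genes are shown before their values because they span the range of responses: GINS1, with the largest fall; MCM6, the helicase subunit with the largest fall; GINS3, a GINS subunit that did not pass the test; CDT1, the gene that rose; and TIMELESS, which fell without an E2F match. Each runs 5′ to 3′ on the gene's strand, from 250 bases before to 50 bases after the annotated start (RefSeq, GRCh38.p14). Capitals mark matches to the E2F words TTTGGCGC, TTTCCCGC, TTTGCCGC or TTTCGCGC on either strand.
GINS1 (chr20:25407423-25407722, plus strand): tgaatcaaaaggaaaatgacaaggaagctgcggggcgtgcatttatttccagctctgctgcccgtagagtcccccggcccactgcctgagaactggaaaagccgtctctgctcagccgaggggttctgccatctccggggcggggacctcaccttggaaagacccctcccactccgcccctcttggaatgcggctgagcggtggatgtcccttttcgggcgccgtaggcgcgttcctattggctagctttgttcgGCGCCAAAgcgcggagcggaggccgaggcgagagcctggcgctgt
MCM6 (chr2:135876394-135876693, minus strand): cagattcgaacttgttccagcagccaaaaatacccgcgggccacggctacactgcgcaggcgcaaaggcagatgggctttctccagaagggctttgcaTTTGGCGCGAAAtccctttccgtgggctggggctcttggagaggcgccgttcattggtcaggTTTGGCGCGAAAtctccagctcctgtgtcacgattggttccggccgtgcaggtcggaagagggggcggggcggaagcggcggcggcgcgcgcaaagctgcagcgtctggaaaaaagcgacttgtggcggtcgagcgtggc
GINS3 (chr16:58392221-58392520, plus strand): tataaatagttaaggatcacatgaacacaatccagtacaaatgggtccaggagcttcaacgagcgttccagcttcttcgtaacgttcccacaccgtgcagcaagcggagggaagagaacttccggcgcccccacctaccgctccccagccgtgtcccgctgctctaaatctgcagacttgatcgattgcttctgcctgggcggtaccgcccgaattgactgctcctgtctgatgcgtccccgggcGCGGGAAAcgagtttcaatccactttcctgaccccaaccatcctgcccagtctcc
CDT1 (chr16:88803539-88803838, plus strand): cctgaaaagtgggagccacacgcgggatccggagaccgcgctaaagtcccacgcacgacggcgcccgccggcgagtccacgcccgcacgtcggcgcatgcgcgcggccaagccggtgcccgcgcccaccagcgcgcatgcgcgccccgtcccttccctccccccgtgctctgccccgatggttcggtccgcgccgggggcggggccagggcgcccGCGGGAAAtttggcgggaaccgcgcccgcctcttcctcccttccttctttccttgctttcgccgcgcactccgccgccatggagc
TIMELESS (chr12:56449377-56449676, minus strand): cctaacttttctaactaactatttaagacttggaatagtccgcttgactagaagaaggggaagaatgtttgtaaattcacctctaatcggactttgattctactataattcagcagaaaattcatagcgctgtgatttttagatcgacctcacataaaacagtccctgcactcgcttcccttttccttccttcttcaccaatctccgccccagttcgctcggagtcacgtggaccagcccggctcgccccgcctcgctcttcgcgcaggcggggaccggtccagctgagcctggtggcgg

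MCM6 carried 4 matches, in 2 places, since each run of capitals holds a match on both strands that share bases; they began 152, 148, 90 and 86 bases before the start. The match of GINS1 began 6 bases into the transcript, that of GINS3 5 bases before the start and that of CDT1 35 bases before it. A match is a description of the letters and does not show that a factor binds there.

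Licensing genes moved in both directions. Of 6 genes for origin recognition and MCM loading, 3 fell, 1 rose and 2 did not pass, with a median log2 fold change of -0.28. CDC6, the ATPase that works with ORC to load MCM rings, had 32.4, 31.7 and 32.4 CPM in si-SNHG17 and 66.5, 68.3 and 70.2 CPM in si-NC. Its level fell to 47.1% of the control (log2 fold change -1.09, standard error 0.0906, adjusted p = 6.78e-07 by edgeR), and the groups did not overlap. ORC1, the largest ORC subunit, had 18.9, 20.1 and 16.98 CPM against 33.1, 34.3 and 28.4 CPM, again without overlap (log2 fold change -0.77). ORC2 had 32.8, 31.8 and 33.0 CPM against 41.7, 39.5 and 31.2 CPM; si-NC replicate 3 was below every si-SNHG17 library and the other si-NC libraries above them (-0.20, standard error 0.117, adjusted p = 0.196 by edgeR). Without si-NC replicate 3, ORC2 passed (adjusted p = 0.0179). ORC6 had 16.1, 17.7 and 16.8 CPM against 16.5, 19.5 and 16.0 CPM, and the groups overlapped (-0.04, standard error 0.130).

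CDT1, the MCM loader, was the only one of the 46 genes called higher. It had 72.7, 79.0 and 64.6 CPM in si-SNHG17 and 46.9, 45.1 and 61.9 CPM in si-NC (log2 fold change 0.49, standard error 0.123, adjusted p = 0.00602 by edgeR). All 3 si-SNHG17 libraries were above all 3 si-NC libraries, though si-NC replicate 3 came close to si-SNHG17 replicate 3. With the GC and length offset the CDT1 change was 0.26 (adjusted p = 0.0155 by edgeR). GMNN, its inhibitor, had 18.4, 19.5 and 21.7 CPM against 23.2, 25.8 and 27.2 CPM, lower without overlap (-0.36, adjusted p = 0.0275). The GMNN call was lost without si-SNHG17 replicate 1 or 2 or si-NC replicate 2 or 3 (adjusted p from 0.0569 to 0.107), with DESeq2 (0.0712) and with an offset fitted to GC content and length (0.0729). Within each library, the ratio of CDT1 to GMNN in CPM was 2.01 ± 0.268 in si-NC against 3.67 ± 0.592 in si-SNHG17 (SD, n = 3). This ratio and the others below were chosen after the values were seen and are given as descriptions.

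The helicase ring fell as a whole. All 6 genes of MCM2 to MCM7 were called lower without overlap of the groups, with a median log2 fold change of -0.997, and 3 of them fell at least 2-fold. MCM6 had 65.1, 66.9 and 66.2 CPM in si-SNHG17 and 156.8, 161.4 and 148.8 CPM in si-NC, which left 42.4% (log2 fold change -1.24, standard error 0.0789, adjusted p = 5.88e-08 by edgeR). MCM4 had 93.4, 91.7 and 103.7 CPM against 209.6, 233.7 and 178.2 CPM (-1.11), and MCM3 84.0, 78.3 and 83.1 CPM against 166.2, 190.2 and 157.1 CPM (-1.07). MCM5 (-0.93) and MCM7 (-0.91) were close behind. MCM2 fell least, from 123.2 ± 8.98 to 89.5 ± 4.43 CPM (-0.46, adjusted p = 0.00076). MCM8, a relative of these genes that acts in recombination repair rather than in the ring, had 36.9, 35.1 and 36.4 CPM against 59.9, 60.9 and 55.5 CPM (-0.70).

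The RNA levels of the 6 ring genes were also compared per kilobase of transcript, as shares of their summed CPM per kb. MCM2 held 20.1% ± 0.828 of that sum in si-SNHG17 and 14.2% ± 0.757 in si-NC, and MCM6 held 14.4% ± 0.375 and 17.5% ± 0.418 (SD, n = 3); neither overlapped between the groups. The shares of MCM4 (18.7% and 20.7%), MCM5 (13.7% and 13.4%) and MCM7 (12.3% and 11.9%) overlapped. In every library the highest subunit was between 1.57 and 2.18 times the lowest.

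The genes that complete the helicase held the largest fall of the 46. Of CDC45, the 4 GINS genes and MCM10, 5 fell and 1 did not pass, with a median of -1.04. GINS1, a subunit of the 4-part GINS complex, had 11.7, 10.3 and 9.23 CPM in si-SNHG17 and 43.7, 47.2 and 43.9 CPM in si-NC. It was left at 23.1% of the control (log2 fold change -2.11, standard error 0.120, adjusted p = 2.18e-08 by edgeR). GINS2 had 15.1, 21.4 and 19.0 CPM against 46.7, 53.4 and 62.9 CPM (-1.55), and CDC45, which joins GINS on the MCM ring, 16.0, 13.1 and 14.5 CPM against 29.7, 31.3 and 31.8 CPM (-1.10). None of these 3 overlapped. MCM10, which helps to activate the assembled helicase, fell from 35.0 ± 5.37 to 17.9 ± 1.42 CPM (-0.97), and GINS4 from 35.2 ± 3.61 to 22.2 ± 1.82 CPM (-0.66). GINS3 had 11.8, 13.5 and 12.6 CPM against 12.1, 14.6 and 12.7 CPM, and its groups overlapped (-0.05, standard error 0.143).

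The 4 GINS subunits differed in their RNA shares per kilobase. GINS1 made up 28.2% ± 1.39 of the GINS sum in si-NC and 15.0% ± 2.81 in si-SNHG17, while GINS3 made up 11.8% ± 0.855 and 25.9% ± 0.367 (SD, n = 3). The ratio of GINS1 to GINS3 in CPM was 3.44 ± 0.193 in si-NC and 0.828 ± 0.142 in si-SNHG17, a 4.15-fold difference. No library of one group came near the other in this ratio.

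The kinase that fires origins was divided. CDC7, the catalytic subunit, had 9.18, 7.03 and 10.0 CPM in si-SNHG17 and 16.3, 15.0 and 10.5 CPM in si-NC (log2 fold change -0.68, standard error 0.194, adjusted p = 0.013 by edgeR). Its groups did not overlap, but si-NC replicate 3 was close to the si-SNHG17 libraries, and the call was lost without si-SNHG17 replicate 2 (adjusted p = 0.0635) or si-NC replicate 1 (0.0548). DBF4, its activator, had 16.997, 19.6 and 20.2 CPM against 14.1, 15.5 and 15.4 CPM. All 3 si-SNHG17 libraries were above the si-NC libraries, but DBF4 did not pass (0.33, standard error 0.128, adjusted p = 0.0528 by edgeR). It passed with library totals only (adjusted p = 0.0333), with the GC and length offset (0.0451) and without si-SNHG17 replicate 1 (0.0434). The ratio of DBF4 to CDC7 was 2.22 ± 0.498 in si-SNHG17 and 1.12 ± 0.308 in si-NC.

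**Figure D2:**
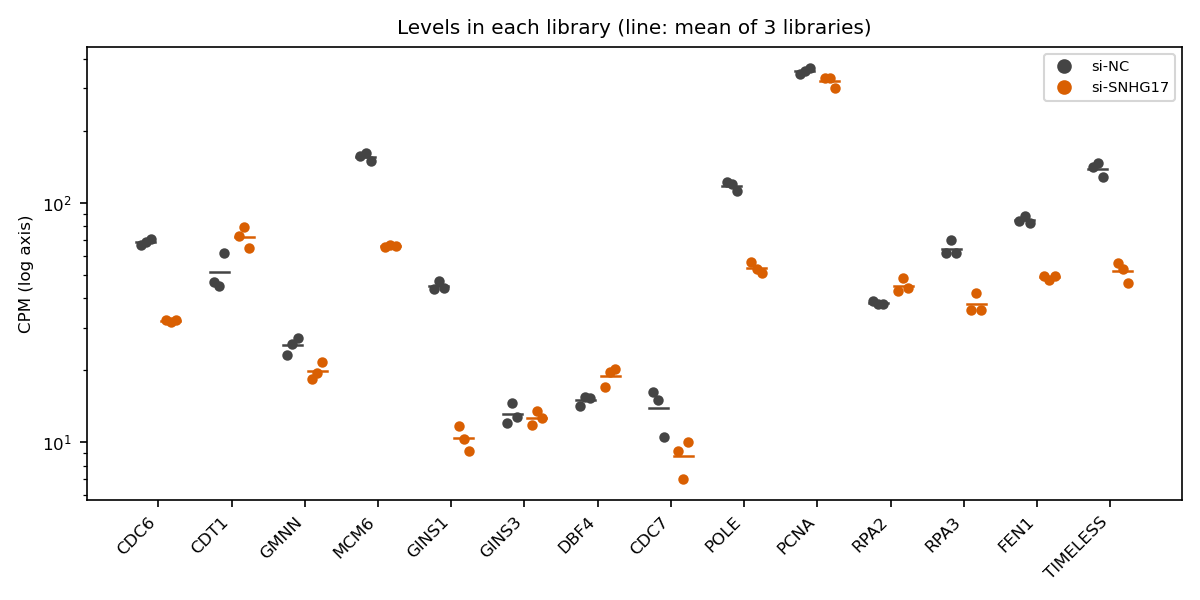
The vertical axis is the level in CPM on a log axis for 14 of the genes; each point is a library, grey for si-NC and orange for si-SNHG17, and each line is the mean of 3 libraries. GINS1 shows the widest gap and GINS3 overlapping points, and CDT1, DBF4 and RPA2 have their orange points above the grey ones.

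Of the 9 polymerase and primase genes, 7 fell and 2 did not pass, with a median of -0.60. POLD3, an accessory subunit of polymerase delta, had 14.5, 14.9 and 13.2 CPM in si-SNHG17 and 38.8, 42.1 and 32.7 CPM in si-NC (log2 fold change -1.41, standard error 0.126, adjusted p = 1.31e-06 by edgeR). POLE, the catalytic subunit of the leading-strand polymerase epsilon, had 56.7, 53.0 and 50.9 CPM against 121.9, 120.1 and 112.0 CPM (-1.14). POLE2, its second subunit, had 3.55, 2.48 and 3.76 CPM against 8.20, 6.51 and 6.74 CPM (-1.15, standard error 0.224). None of these 3 overlapped between the groups. POLD1, the catalytic subunit of polymerase delta, had 57.7, 65.7 and 60.9 CPM against 65.6, 64.2 and 79.5 CPM, which overlapped (-0.18, standard error 0.103, adjusted p = 0.175). With the GC and length offset POLD1 was called lower (-0.42, adjusted p = 0.000246 by edgeR).

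Within the same library, POLE stood at 1.71 ± 0.264 times POLD1 in si-NC and at 0.876 ± 0.0947 times in si-SNHG17. Of the polymerase delta sum per kilobase, POLD3 held 8.94% ± 1.52 in si-NC and 4.47% ± 0.119 in si-SNHG17, without overlap. POLD2, the second subunit of polymerase delta, fell by 0.40 on the log2 scale. Of polymerase alpha-primase, which lays down the primers, POLA1 fell by 0.79, POLA2 by 0.60 and PRIM1 by 0.32. PRIM1, with 17.3, 20.1 and 19.0 CPM against 22.7, 24.5 and 23.5 CPM, was called at an adjusted p of 0.0423 by edgeR and lost that call in 9 of 15 alternatives (adjusted p from 0.0677 to 0.151). PRIM2 had 4.90, 4.47 and 5.36 CPM against 4.55, 6.61 and 5.81 CPM, with overlap (-0.22, standard error 0.209). The shares of the 4 alpha-primase genes overlapped between the groups.

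The clamp and its loaders differed. PCNA, the sliding clamp and by CPM per kb the most abundant RNA of the 46, had 331.2, 332.0 and 302.6 CPM in si-SNHG17 and 346.0, 354.2 and 366.6 CPM in si-NC. All si-SNHG17 libraries were below the si-NC libraries, but by little, and PCNA did not pass (log2 fold change -0.14, standard error 0.0733, adjusted p = 0.139 by edgeR). All 7 loader genes fell. RFC3 had 2.92, 3.44 and 1.94 CPM against 10.1, 10.2 and 6.46 CPM (-1.65, standard error 0.254), RFC1, the large subunit, 10.5, 12.4 and 12.99 CPM against 26.0, 21.0 and 25.5 CPM (-1.01), and DSCC1, of the alternative loader that serves sister chromatid cohesion, 4.80, 4.39 and 3.53 CPM against 8.42, 8.88 and 8.05 CPM (-0.99). RFC4 (-0.97), RFC5 (-0.70), CHTF18 (-0.59) and RFC2 (-0.45) completed them. With the GC and length offset CHTF18 was at -0.94. In si-NC, PCNA stood at 261.7 ± 7.66 CPM per kb, above POLD2 at 81.3 ± 4.60, the next of the 46, and the lowest was PRIM2 at 2.45 ± 0.449.

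RPA, the single-strand binding complex, was the group in which only 1 of 3 genes fell. RPA3, the smallest subunit, had 35.7, 42.0 and 35.7 CPM in si-SNHG17 and 61.6, 69.6 and 61.7 CPM in si-NC, without overlap (log2 fold change -0.76, standard error 0.103, adjusted p = 5.29e-05 by edgeR). RPA2, the subunit phosphorylated under replication stress, had 43.0, 48.4 and 44.0 CPM against 39.1, 37.9 and 37.6 CPM. These were higher without overlap but did not pass (0.24, adjusted p = 0.0604); RPA2 passed with library totals only (0.0327) and with the GC and length offset (0.00519). RPA1, the largest subunit, had 26.5, 23.4 and 24.2 CPM against 27.9, 23.3 and 20.9 CPM, with overlap (0.04, standard error 0.127). RPA3 made up 53.8% ± 2.30 of the RPA sum per kilobase in si-NC and 37.2% ± 1.21 in si-SNHG17.

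**Figure D3:**
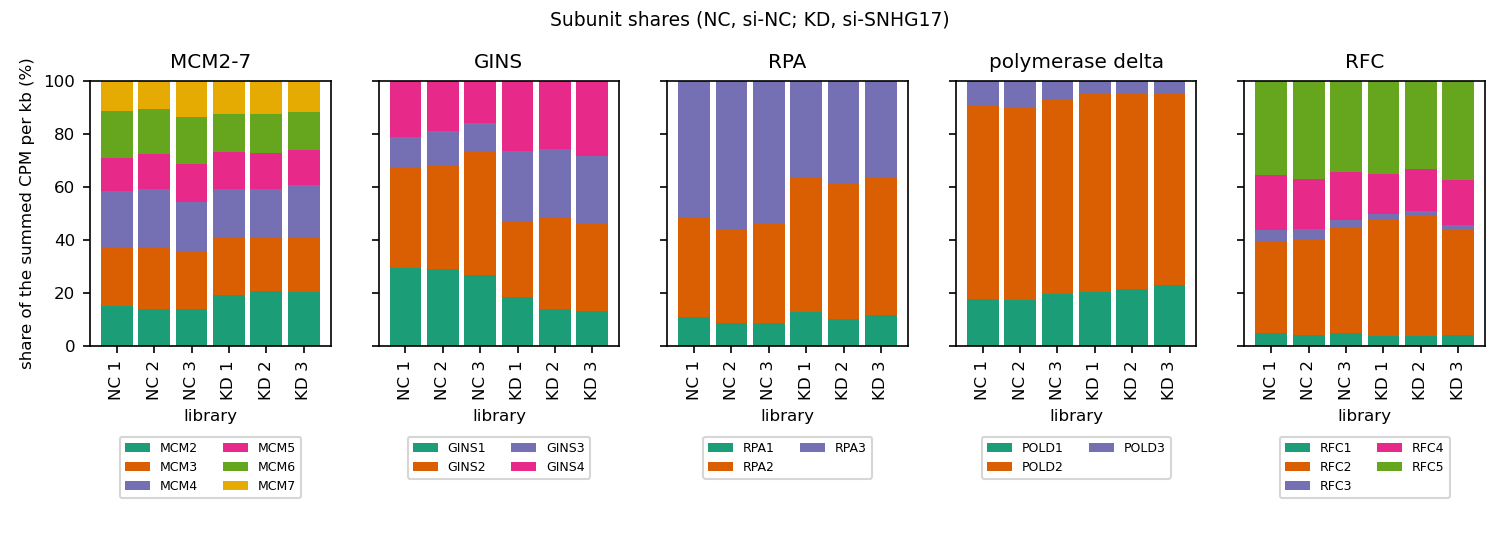
Each bar is a library (NC, si-NC; KD, si-SNHG17), split by the share in percent that each subunit takes of its complex's summed CPM per kb. The GINS1 segment narrows from 28.2% to 15.0% and the RPA3 segment from 53.8% to 37.2% on average, while the MCM2 to MCM7 bars change less.

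Both genes that finish lagging-strand fragments fell. FEN1, the flap nuclease, had 49.5, 47.5 and 49.3 CPM in si-SNHG17 and 84.2, 87.8 and 81.9 CPM in si-NC (log2 fold change -0.80, adjusted p = 6.58e-06 by edgeR), and LIG1, the ligase, 78.5, 74.4 and 74.98 CPM against 90.3, 101.6 and 93.4 CPM (-0.32, adjusted p = 0.00738). Neither overlapped. Of the 3 fork protection genes, 2 fell. TIMELESS, which couples the helicase to the polymerases, had 55.8, 53.1 and 46.3 CPM against 141.1, 146.0 and 127.6 CPM (-1.42, standard error 0.0949, adjusted p = 9.56e-08). Its partner TIPIN had 5.32, 4.55 and 4.79 CPM against 5.92, 6.21 and 5.99 CPM, lower in all 3 libraries without passing (-0.31, standard error 0.189, adjusted p = 0.215 by edgeR). WDHD1, which links polymerase alpha to the helicase, had 21.8, 21.6 and 24.0 CPM against 31.1, 31.7 and 27.1 CPM (-0.41).

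The promoters were searched for short sequence words, which were not used to choose the genes. Of the 39 genes with a promoter in the RefSeq table, 17 (43.6%) held an E2F match within the 300 bases, against 3.33% of all 27305 promoters and 5.31% of the 9810 promoters of genes tested. MCM4, MCM5, GINS4, POLD3, DSCC1, RPA2 and RPA3 had no entry. The 17 genes with a match had a median log2 fold change of -0.91, with 14 lower and 1 higher, and the 22 without one had a median of -0.43, with 15 lower and none higher. Over all genes tested, 131 of 521 with a match were called lower and 84 higher (median -0.05), and 1900 of 9289 without one were called lower and 2088 higher (median 0.03). The match did not sort the genes one by one: GINS3 and PCNA held one and did not pass, CDT1 held one and rose, and TIMELESS, CDC45 and RFC1 fell at least 2-fold without one. The CCAAT word, on either strand, was in 59.0% of the 39 promoters and 36.4% of the promoters of genes tested, and the cell cycle homology word TTTGAA was in 2.56% and 9.44%.

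**Figure D4:**
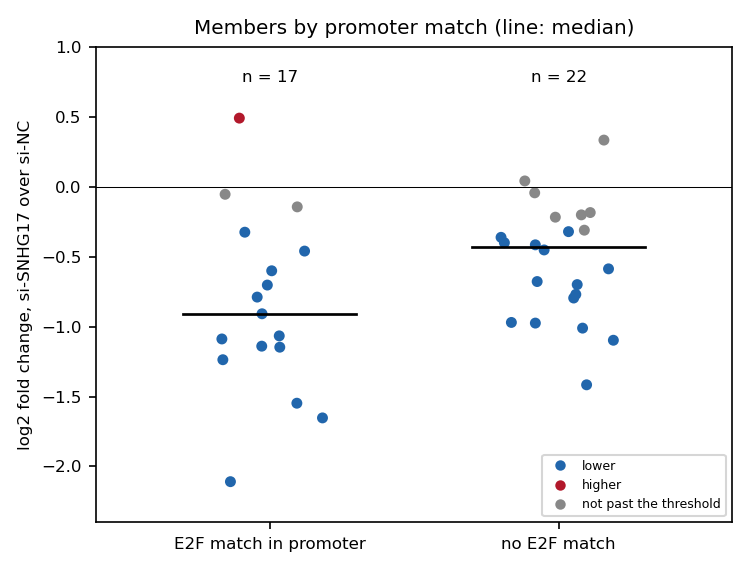
Each point is a gene placed by its log2 fold change on the vertical axis, split by whether its promoter held an E2F match (17 genes) or not (22 genes); points are spread sideways only for visibility, and lines are medians. The medians are -0.91 and -0.43, and both columns hold genes that were not called lower.

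At the other end of the transcripts, 3 prime UTRs were read for the 6-base sequence CTCTGT, searched because of an earlier look at these data. It was in 41.3% of the 46 genes and in 48.3% of mRNAs tested. Of the 19 carriers 13 fell and 1 rose (median -0.79), and of the 27 genes without it 22 fell and none rose (median -0.66). Among mRNAs tested, 1442 of 5777 carriers were called lower (median -0.02) and 954 of 6195 others (median 0.09). The share called lower was thus higher with the sequence among all mRNAs, and higher without it among the 46. Falls of at least 2-fold were more frequent with it in both. They were called for 8 of the 19 carriers and 5 of the 27 others among the 46. Among mRNAs tested they were called for 306 of 5777 carriers and 136 of 6195 others. Because the search followed an earlier look at these data, these shares are descriptions and not a test. The 3 prime UTRs of the 46 ran from 3 to 4589 bases, and their length was not taken into account. MCM10 and RFC1 held it 3 times, the most of the 46. GINS1, POLD3, TIMELESS, POLE and MCM4 each held it 2 times, as did CDT1, the gene that rose; MCM6, MCM3, CDC6 and CDC45 held none and fell at least 2-fold.

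Replication genes outside the 46 differed by list. Of all genes tested, 19.6% were called lower and 19.6% higher. Of 14 other licensing and firing factors, 4 fell (28.6%), none rose and 10 did not pass, with a median of -0.24. TOPBP1, which recruits factors to origins that fire, fell by 0.70 on the log2 scale, the acetyltransferase KAT7 by 0.73 and the MCM-binding protein MCMBP by 0.35, while ORC3 (0.30), ORC4 (0.05) and ORC5 (0.14) did not pass. Of 22 other fork and chromatin assembly genes tested, 14 fell (63.6%), 2 rose and 6 did not pass. CLSPN, the checkpoint mediator claspin that works with TIMELESS, fell from 19.7 ± 0.562 to 9.15 ± 0.613 CPM (-1.10), RNASEH2A, a subunit of RNase H2, fell by 0.81 and the PCNA-binding gene KIAA0101 (PCLAF) by 0.73. TOP1, the topoisomerase that relieves supercoils, and the histone chaperone ASF1A rose by 0.59 and 0.44. In the same list the chromatin assembly genes ASF1B (-0.95), CHAF1A (-0.93) and CHAF1B (-0.99) fell.

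The other DNA polymerases, listed with the mitochondrial POLG and POLG2 and the accessory gene MAD2L2, showed no shared direction. Of 12 tested, 4 fell (33.3%), 1 rose and 7 did not pass, with a median of -0.04. POLL, an end-joining polymerase, rose from 39.0 ± 3.89 to 65.5 ± 3.13 CPM (0.75 on the log2 scale, edgeR adjusted p = 5.1e-05), whereas MAD2L2 (-0.49), POLQ (-0.69), POLH (-0.34) and PRIMPOL (-0.51) fell. Of 9 cell cycle genes tested, 5 fell (55.6%), 2 rose and 2 did not pass. E2F1 fell from 45.7 ± 1.59 to 14.6 ± 1.19 CPM (-1.64) and the proliferation marker MKI67 from 514.4 ± 113.04 to 220.7 ± 15.0 CPM (-1.22). CCNA2 (-0.65), CDK2 (-0.58) and CCNB1 (-0.45) also fell. The CDK inhibitor CDKN1A rose from 502.9 ± 66.7 to 785.3 ± 73.7 CPM (0.64) and cyclin E1 (CCNE1) by 0.52. Their part in the replication gene results was not tested.

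The span of 25 of the 46 genes overlaps another annotated gene, and no source used here says how reads were assigned there or whether strand was used. For ORC1, POLA1, PRIM2, RFC5 and TIPIN the overlapping gene had at least 50% of the member's counts, so their values and calls are uncertain. The overlapping gene had more counts than the member for POLA1 (10333 against 764), RFC5 (5586 against 3037) and PRIM2 (607 against 319). It had fewer for ORC1 (1392 against 1524) and TIPIN (283 against 329).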

How the data were processed

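The deposited table, made by the authors, holds raw read counts as whole numbers (54261 genes, 6 libraries), per the file headers; GRCh38 is the build named in the submitters' processing notes. RNA was extracted with Trizol and sequenced single-end on an Ion Proton instrument, per the labels' protocols. How reads were aligned, annotated and counted is not given in the sources used here.

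The main test was the quasi-likelihood test of edgeR 4.0.16 under R 4.3.3, on TMM-scaled counts past filterByExpr, with a Benjamini-Hochberg adjustment over 15614 genes. The procedure was tested on simulated data with 200 changed genes. The real data had 6112 calls, so that test does not give their error rate. The genes, role groups and other lists were chosen with earlier results of these data known, so no set test was made. Values in every library were given, by rule, for up to 3 genes per role with the largest change and for every gene not called lower, and means or changes for up to 3 genes of each other list with the smallest p; a few further values, the pairs and the motif words were chosen after the values were seen. CPM per kb used the principal GENCODE 29 transcript. Promoters came from RefSeq (GRCh38.p14) and were matched by symbol. A count of 0 allows up to 3 counts, 0.240 to 0.342 CPM, an allowance for counting error only. Alternatives were other scalings, DESeq2 1.42.0, limma-voom (limma 3.58.1), other filters, a replicate block, a GC and length offset (mgcv 1.9.3; all 46 genes had both) and leaving out each library. One listed marker gene is not reported here.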

Additional observations from a re-analysis of the deposited data

How the results depend on the processing

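SNHG17 stayed lower in all 15 alternatives. The number of the 46 genes called lower was 35 and ran from 33 to 35 over the alternatives, also when each library was left out. Those lower by at least 2-fold numbered 13, and 12 to 16 when each library was left out. The number called higher was 1, but 3 with library totals only and 3 with the GC and length offset, where DBF4 and RPA2 joined CDT1, and 1 to 2 when each library was left out. The median log2 fold change ran from -0.7706 (without si-NC replicate 3) to -0.6804 when each library was left out. A replicate block gave 34 genes lower and 1 higher; libraries of like number had correlations of deviations of 0.06, -0.11 and -0.08, so the numbers were not taken to pair them, and over all genes the block gave 5579 calls instead of 6112. Genes near 0 changed sign: ORC6 was at 0.0459 with the GC and length offset and ran from -0.1014 to 0.0487 when each library was left out, GINS3 from -0.1097 to 0.0267 and RPA1 from -0.0518 to 0.1588; none of them passed the threshold, and the cause was not tested. Of the remaining single-gene values, 661 kept direction and side of the threshold, 17 lost a call (GMNN, PRIM1 and CDC7) and 7 gained one (DBF4, ORC2, POLD1 and RPA2). Called values moved by over 1.5 times with the GC and length offset for CDT1 (0.26) and CHTF18 (-0.94). The standard error of the log2 fold change, which limits what low counts can show, was 0.254 for RFC3 and 0.224 for POLE2.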
